A study of Mus musculus with 18 samples.

Results

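The MYC, MAX and MXD network was followed here through 10 genes, *Myc*, *Mycn*, *Max*, *Mxd1*, *Mxd3*, *Mxd4*, *Mxi1*, *Mnt*, *Mlx* and *Mga*, which were found by symbol among the 50600 genes of the count table. MYC and its relative MYCN are basic helix-loop-helix leucine zipper transcription factors that bind DNA only as partners of MAX, at E-box sequences such as CACGTG, and drive genes of ribosome production, metabolism and growth. The MXD proteins, MXI1 and MNT compete with MYC for MAX and recruit SIN3 and histone deacetylases to the same sites, MLX pairs with some of these antagonists and with the nutrient sensors MLXIP and MLXIPL, and MGA pairs with MAX within the repressive complex PRC1.6. In T cells, MYC is induced by antigen receptor signals and is held up by IL-2, which signals through the receptor that contains CD25, the product of *Il2ra*.

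The RNA came from FACS-purified Foxp3+ regulatory T cells (Tregs) of 18 C57BL/6 mice in 4 groups. Thymic CD25 KO Tregs came from 5 mice aged 3–4 weeks whose floxed *Il2ra* was deleted by a Cre recombinase expressed from *Foxp3* in Tregs, and which had been "cured" of autoimmunity by WT splenocytes given intravenously after birth, so that donor cells remained in these hosts. Thymic WT Tregs came from 5 Foxp3/RFP reporter mice of the same age, for which the labels give no such transfer. In thymus, the *Foxp3* allele and the transfer thus changed together with the genotype. Their parts in the thymic differences cannot be told apart from that of CD25. Splenic CD25 KO Tregs came from 4 CD25flox/Foxp3eGFP-Cre-ERT2/R26Y mice, in which tamoxifen starts the deletion in cells that express *Foxp3* at that time, and splenic WT Tregs came from 4 reporter controls. Mice of both splenic groups received tamoxifen at 7–10 weeks of age, and spleens were taken 10–14 days later. The tissue, the age, the way the gene was deleted and the date in the column headers of the count table therefore changed together between the thymic and splenic samples. Whether both tissues were counted in the same run is not given in the sources used here, and levels are set side by side across tissues without a test.

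Total counts were 17239774–23993674 in the thymic libraries and 25258341–32639570 in the splenic libraries, so that 3 counts, the floor used here, came to at most 0.168 and 0.124 CPM (read counts scaled to a library of fixed size). *Il2ra* was lower in every CD25 KO library than in every WT library of its tissue, at 26.8% of the WT mean in thymus and 35.6% in spleen, although the deletion removes only part of the gene. *Il2ra* was at 291 and 243 CPM in mice 2 and 4 of the thymic CD25 KO group, against 99–107 CPM in the other 3. Of the markers of other cell types, 20.8–123 CPM in thymic WT against 26.2–68.9 CPM in thymic CD25 KO samples came from immature thymocyte genes (*Rag1*, *Rag2*, *Dntt* and *Ptcra*), against 2780–3530 CPM from the 5 Treg markers *Cd3e*, *Cd4*, *Foxp3*, *Ikzf2* and *Ctla4*. The summed B cell, myeloid, CD8 T cell and erythroid markers stayed at or below 54.2 CPM each in every library, although the myeloid marker *Lyz2* rose in splenic CD25 KO samples (log2 fold change 1.03, FDR = 0.00132). Of the 4 myeloid markers tested in spleen, 2 had negative log2 fold changes, only 1 was called, and the median was -0.09. The part of these markers in the splenic changes was not tested. In these bulk samples, fewer cells with a transcript and less of it in each cell cannot be told apart.

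As a view of where the network could act on itself, the 250 bases before each start site were searched on both strands for the canonical E-box CACGTG, its variant CACGCG, and the STAT motif TTCNNNGAA. RefSeq promoter entries (GRCm38.p6) were matched for 9 of the 10 genes, in 11 windows, with none for *Myc*. CACGTG was found in the windows of *Mxd4*, *Mnt* and *Mlx*, against 6.0% of all 32851 promoter windows, and CACGCG in that of *Mga*, against 7.6%. TTCNNNGAA was found in none of the 11 windows, against 7.0% of all. The 3 canonical matches are shown with their flanks because they belong to a MYC antagonist that moved in the CD25 KO, a MYC antagonist that did not pass the test, and the partner MLX. Capitals mark the E-box, which reads the same on either strand. They lie 219, 123 and 40 bases before the start sites of *Mxd4*, *Mnt* and *Mlx*, at chr5:34187904-34187949 on the minus strand, chr11:74830781-74830826 on the plus strand and chr11:101087230-101087275 on the plus strand.
Mxd4: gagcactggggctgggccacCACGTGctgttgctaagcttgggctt
Mnt: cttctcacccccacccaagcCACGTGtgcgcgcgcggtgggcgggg
Mlx: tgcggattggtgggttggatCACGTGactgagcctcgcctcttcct
A match is a stretch of letters and not a measured binding site.

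*Myc* was lower in CD25 KO than in WT samples of both tissues, and it had the largest called change of the members with all mice included. *Myc* (chr15:61985391-61990374, plus strand, GRCm38) was at 128.3, 134, 124, 129 and 119.7 CPM in the 5 thymic WT samples and at 63.3, 81.5, 58.8, 72.7 and 49.6 CPM in the 5 thymic CD25 KO samples. In spleen it was at 96.6, 93.0, 106 and 108 CPM in WT and at 54.3, 49.2, 45.2 and 49.6 CPM in CD25 KO. The groups did not overlap in either tissue. CD25 KO mice 2 and 4, with the most *Il2ra*, had the highest *Myc* of the thymic CD25 KO mice. Without them, the thymic log2 fold change was -1.15. The mean was 51.3% of WT in thymus, a log2 fold change of -0.96 (SE 0.109, FDR = 0.000364), and 49.2% of WT in spleen, a log2 fold change of -1.02 (SE 0.0654, FDR = 1.19e-07). The 2 changes differed by -0.05 (95% interval -0.34 to 0.24, FDR = 0.849).

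Genes were called differentially expressed (DE) at FDR < 0.01 over all genes tested within a tissue. Of the 9 members tested in thymus, *Myc* alone was DE and lower with edgeR (DESeq2 added *Mxd1* and *Mxi1*, both lower), where 2.99% of the 16986 genes tested fell and 3.17% rose. Of the 9 tested in spleen, *Myc* and *Mxd4* were lower and none was higher with edgeR (DESeq2 added *Mxi1*), where 3.55% of the 17463 genes tested fell and 5.9% rose. Over all genes, DESeq2 called 2730 in thymus and 2118 in spleen, where edgeR called 1047 and 1651. The median log2 fold change over the tested members was -0.15 in thymus and -0.03 in spleen, against -0.002 and -0.006 over all genes tested. At an unadjusted p under 0.05, 3 members were lower and 1 higher in thymus, and 2 lower and 2 higher in spleen, where 37.9% of all genes tested in thymus and 29.9% in spleen had such a p. CD25 KO and WT values did not overlap for 3 members in thymus (*Myc*, *Mxd1*, *Mxi1*) and for 4 in spleen (*Myc*, *Mxd3*, *Mxd4*, *Mxi1*), as they did not for 16.4% and 20.5% of all genes tested. The difference of the effect between tissues was DE for 1 of 9 members, *Mxi1*, where 6.98% of the 18686 genes tested had such a difference.

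**Figure D1:**
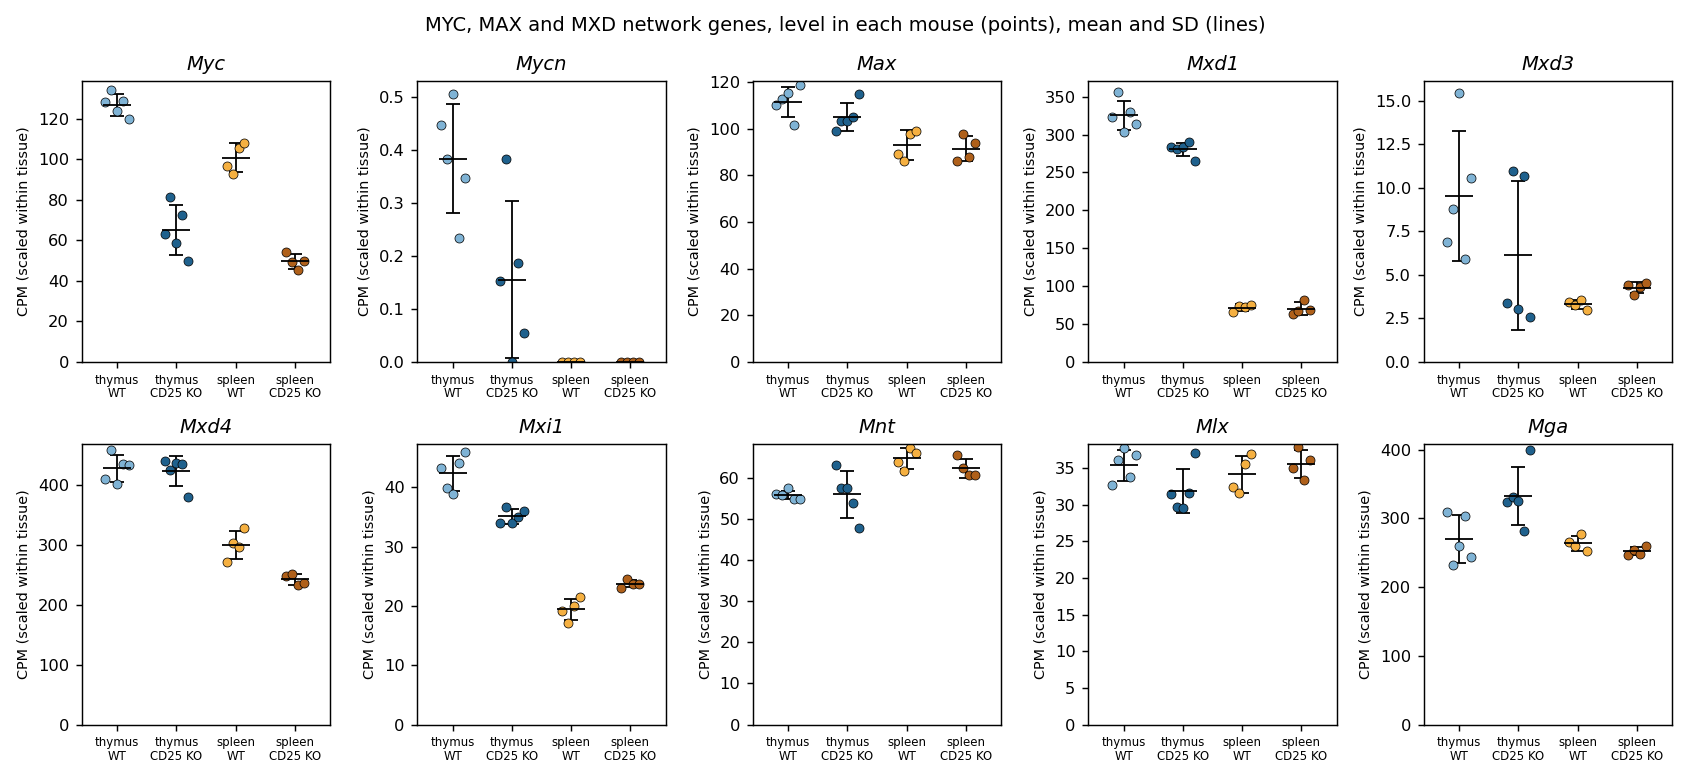
Level of each of the 10 genes in each mouse, in CPM scaled within its tissue (y axis, starting at 0), for the 4 groups (x axis), where points are mice and black lines the mean and SD. *Myc* in CD25 KO samples lies below all WT samples in both tissues, *Mxi1* moves in opposite directions, and *Mxd3* splits the thymic CD25 KO mice into 3 low and 2 high values.

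*Mycn*, which stands in for *Myc* in some progenitor cells, was near or under the counting floor. It had 5–11 counts in the thymic WT libraries and 0–8 in the thymic CD25 KO libraries, too few for the filter, and was listed at 0 in all 8 splenic libraries. The splenic 0 cannot be read as absence of the RNA, because 41 genes with a mean of at least 100 thymic counts, among them the general cell genes *Ppp1ca*, *Uqcrc1* and *Srsf1*, were also listed at 0 in all 8. None of the 10 members was among those 41, and of the other genes on the lists used here only *Rag1* and the mitotic motor gene *Kif11* were.

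*Max*, the partner that MYC needs to bind DNA and that its antagonists share, was at 102–119 CPM in thymic WT against 98.9–115 CPM in thymic CD25 KO samples, and the groups overlapped. In spleen it was at 86.2–99.2 and 86.1–98.0 CPM. Its log2 fold change was -0.09 in thymus (95% interval -0.21 to 0.04, FDR = 0.284) and -0.03 in spleen (95% interval -0.15 to 0.10, FDR = 0.827). These intervals leave out a fall of the size seen for *Myc*. *Max* was thus at 94.2% and 98.3% of WT on average. Per kb of exon, the mean of *Myc* was above that of *Max* in WT and below it in CD25 KO samples of both tissues, with overlapping ranges in the thymic CD25 KO samples.

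**Figure D2:**
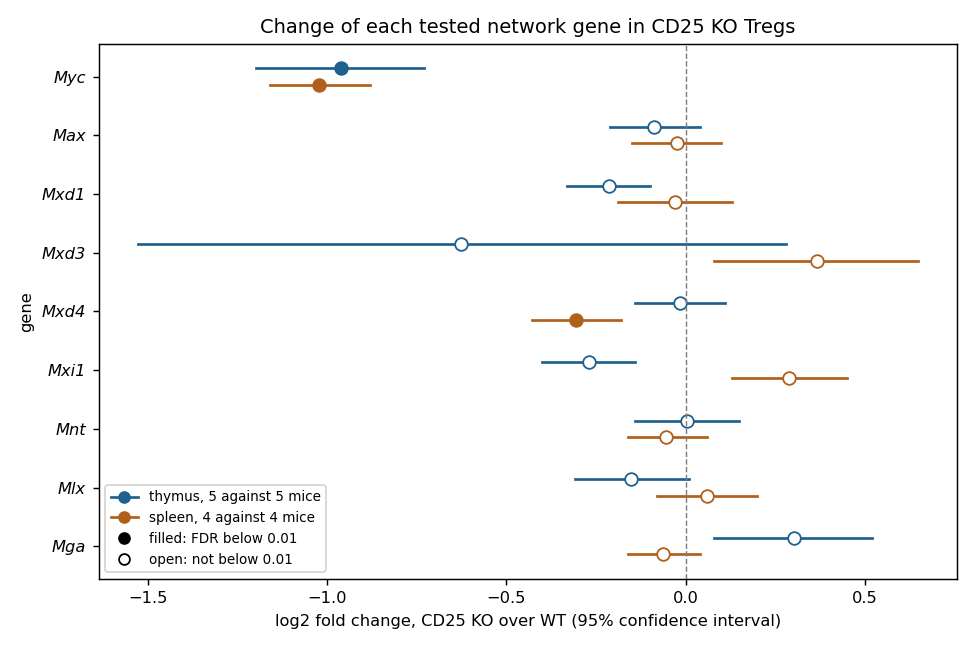
Log2 fold change of CD25 KO over WT (x axis) for the 9 tested members (y axis), with 95% confidence intervals, in thymus (blue, 5 against 5 mice) and spleen (brown, 4 against 4 mice), filled where FDR < 0.01. *Myc* lies near -1 in both tissues, the interval of *Mxi1* lies below 0 in thymus and above 0 in spleen, and that of *Mxd4* lies below 0 in spleen only.

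Among the antagonists, *Mxd4* fell in spleen. *Mxd4* (chr5:34173883-34187720), an MXD gene known from resting and differentiating cells, was at 271, 304, 297 and 329 CPM in splenic WT and at 249, 252, 234 and 236 CPM in splenic CD25 KO samples. Every CD25 KO value was below every WT value, at 80.9% of WT on average, with a log2 fold change of -0.31 (SE 0.0585, FDR = 0.0018). In thymus it was at 402–458 CPM in WT against 379–440 CPM in CD25 KO samples, with a log2 fold change of -0.02 (95% interval -0.14 to 0.11, FDR = 0.868). The difference between tissues, -0.28 (95% interval -0.46 to -0.09, FDR = 0.0352), did not pass. Its E-box match is the most distant of the 3 shown above. Most of its exonic length lies outside the 514 bases that an antisense gene, *Gm42846*, shares with it, and *Gm42846* had no counts in any library.

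*Mxd1*, the first described MXD gene and known for its rise as cells leave the cell cycle, was at 323, 356, 304, 330 and 314 CPM in thymic WT and at 283, 281, 284, 290 and 265 CPM in thymic CD25 KO samples. All 5 CD25 KO values lay below all WT values, but the log2 fold change of -0.21 (SE 0.0524, FDR = 0.015) missed the threshold. DESeq2 gave FDR = 0.00145 for the same change. In spleen the WT samples were at 65.2–75.5 CPM and the CD25 KO samples at 63.0–82.1 CPM, and the groups overlapped (log2 fold change -0.03, 95% interval -0.19 to 0.13, FDR = 0.832). Of the 9 tested members, *Mxd1* was the one whose WT level differed most between the tissues, with a mean of 325 CPM in thymus and 71.7 CPM in spleen, a ratio of 4.54 that also carries the differences in age, mouse model and possibly counting named above.

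*Mxi1*, also known as MXD2, was the member whose change in CD25 KO samples differed between the tissues. *Mxi1* (chr19:53310518-53375810, plus strand) was at 43.3, 39.9, 38.9, 44.0 and 45.9 CPM in thymic WT and at 34.0, 36.7, 33.9, 35.0 and 36.1 CPM in thymic CD25 KO samples. In spleen it was at 19.1, 17.2, 19.95 and 21.5 CPM in WT and at 23.0, 24.5, 23.8 and 23.8 CPM in CD25 KO samples. All CD25 KO samples were thus below WT in thymus and above WT in spleen, with no overlap in either. The log2 fold changes of -0.27 in thymus (SE 0.0604, FDR = 0.0104) and 0.29 in spleen (SE 0.0754, FDR = 0.0138) each missed the threshold. Their difference, 0.58 (SE 0.0932, 95% interval 0.38 to 0.77, FDR = 0.000349), passed it, and it passed under all 25 alternatives, with FDR from 2.61e-07 to 0.00178. Of the 5 Treg markers, *Cd3e* (0.69), *Ctla4* (0.62) and *Cd4* (0.58) also differed between the tissues in this direction, *Foxp3* (0.21) and *Ikzf2* (-0.06) did not pass, and their part in the result was not tested.

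*Mxd3* is the MXD gene whose transcript is known to be high in S phase. It was at 6.91, 8.79, 15.5, 5.93 and 10.5 CPM in thymic WT and at 3.41, 10.9, 3.03, 10.7 and 2.55 CPM in thymic CD25 KO samples. The 2 high CD25 KO values came from mice 2 and 4, which lay among the WT values, while the other 3 lay below every WT value. The log2 fold change of -0.63 was within its error (SE 0.418, FDR = 0.291), and without mice 2 and 4 it was -1.67 (FDR = 0.00285). In spleen *Mxd3* was at 3.46, 3.27, 3.56 and 2.98 CPM in WT and at 4.40, 3.85, 4.33 and 4.52 CPM in CD25 KO samples, without overlap, but the log2 fold change of 0.37 did not pass (SE 0.135, FDR = 0.0779). Its exons share 105 bases with *Prelid1* on the opposite strand, a gene at 84–106 CPM on average in the 4 groups, so part of the low *Mxd3* count is uncertain. The log2 fold changes of *Prelid1*, -0.23 in thymus (FDR = 0.0211) and 0.17 in spleen (FDR = 0.0306), had the same directions as those of *Mxd3*. Neither passed, and the part of *Prelid1* reads in the *Mxd3* changes was not tested.

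Among the thymic mice, *Mxd3* was high where the summed level of 23 cell division genes was high. The list summed to 1967 and 1647 CPM in thymic CD25 KO mice 2 and 4 and to 544, 571 and 433 CPM in CD25 KO mice 1, 3 and 5. In thymic WT it ran from 1109 to 2267 CPM, and the mouse with the most *Mxd3* (15.5 CPM) had the highest sum. In spleen the sum ran from 452 to 497 CPM in WT and from 633 to 762 CPM in CD25 KO samples, so that both it and *Mxd3* were higher in the CD25 KO samples, but within each splenic group the mice did not follow the same order. None of the 23 genes was DE in thymus with edgeR or DESeq2 (3 at an unadjusted p under 0.05), and all 23 log2 fold changes were negative there, with a median of -0.65. In spleen 16 of 22 tested rose and none fell, with a median of 0.82, led by *E2f8* (1.31), *Ccnb2* (1.20) and *Ccnb1* (1.03), a cell cycle repressor and 2 mitotic cyclins. Of all genes tested in spleen, 5.9% rose and 3.55% fell. Thus *Myc* and the cell division genes moved in opposite directions in splenic CD25 KO Tregs.

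**Figure D3:**
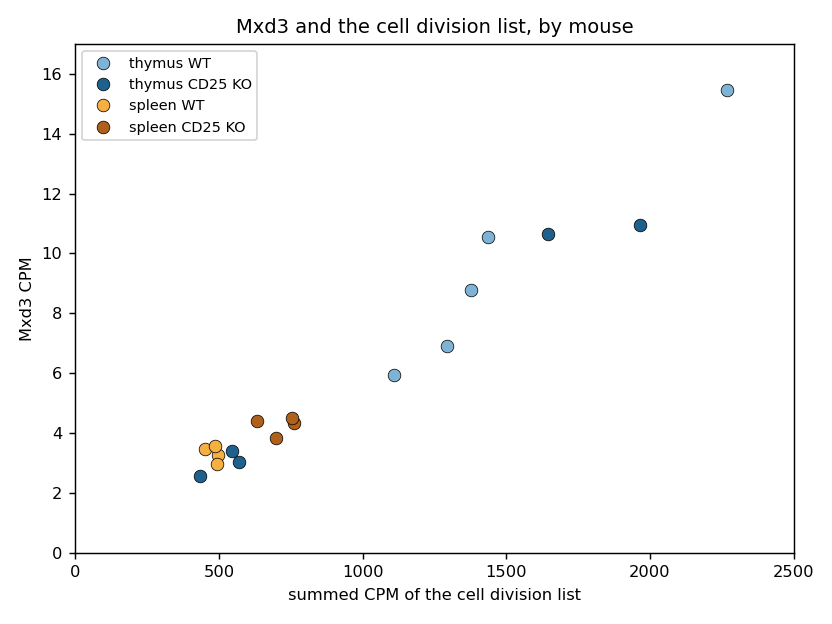
*Mxd3* in CPM (y axis) against the summed CPM of the 23 cell division genes (x axis), 1 point per mouse, coloured by group. The thymic CD25 KO mice fall into 3 with sums of 433–571 CPM and 2 with sums of 1647 and 1967 CPM, and *Mxd3* is high in the latter.

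*Mnt*, the most widely expressed antagonist, was at 54.9–57.5 CPM in thymic WT against 47.8–63.0 CPM in thymic CD25 KO samples, and at 61.7–67.3 and 60.6–65.6 CPM in spleen. The groups overlapped in both tissues, and the log2 fold changes were 0.003 (95% interval -0.14 to 0.15, FDR = 0.978) and -0.05 (95% interval -0.16 to 0.06, FDR = 0.531). *Mlx* was likewise not DE, with log2 fold changes of -0.15 (95% interval -0.31 to 0.01) and 0.06 (95% interval -0.08 to 0.20). Its exons share 385 bases with *Psmc3ip* on the opposite strand, which was at 4.22–5.26 CPM on average in the 4 groups against 31.9–35.6 CPM for *Mlx*. The canonical E-box in the promoter windows of *Mnt* and *Mlx* is shown above, as is that of *Mxd4*, and of the 3 only *Mxd4* was DE.

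*Mga* was the member with the largest positive change in thymus, without passing the test. *Mga* (chr2:119897228-119969581) was at 309, 232, 259, 304 and 244 CPM in thymic WT and at 324, 331, 326, 282 and 400.2 CPM in thymic CD25 KO samples. The groups overlapped, because CD25 KO mouse 4 lay below 2 WT mice, and the log2 fold change was 0.30 (SE 0.101, FDR = 0.0476). In spleen it was at 252–277 and 247–260 CPM (log2 fold change -0.06, 95% interval -0.16 to 0.04, FDR = 0.418). *Mga* has the longest exonic sequence of the 10 genes and the lowest GC content, at 42.6%, and fold changes in thymus fell with the GC content of genes (Spearman's rho = -0.41 across 16945 genes, which are not independent). With a GC correction its thymic log2 fold change was 0.13 (FDR = 0.213).

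Compared between genes per kb of exon, *Mxd4* (50.4 CPM per kb), *Myc* (46.7) and *Mxd1* (46.0) led in thymic WT Tregs, and the ranges of neighbours in that order overlapped. *Max* followed at 31.0, then *Mlx* (17.7) and *Mga* (17.6), *Mnt* (12.1), *Mxi1* (6.21) and *Mxd3* (4.02), with overlap between *Mlx* and *Mga* and between *Mxi1* and *Mxd3*. In thymic CD25 KO Tregs *Myc* came at 24.0 CPM per kb, behind *Mxd4* (49.9), *Mxd1* (39.7) and *Max* (29.2), and its range overlapped those of *Max*, *Mga* and *Mlx*. In splenic WT Tregs *Myc* (37.1) and *Mxd4* (35.4) led with overlapping ranges, ahead of *Max* (25.9). In splenic CD25 KO Tregs the order was *Mxd4* (28.6), *Max* (25.4) and *Myc* (18.3), and the range of *Myc* overlapped those of *Mlx* (17.8) and *Mga* (16.5). *Mxd1* came after *Mnt* in spleen, at 10.1 in WT and 9.93 CPM per kb in CD25 KO.

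The ratio of *Myc* to its summed antagonists (*Mxd1*, *Mxd3*, *Mxd4*, *Mxi1* and *Mnt*, each per kb) was lower in every CD25 KO mouse than in every WT mouse of its tissue. It was 0.394 ± 0.0139 in thymic WT samples against 0.218 ± 0.0332 in those with CD25 KO (SD, n = 5), and 0.582 ± 0.0298 and 0.319 ± 0.0243 in spleen (SD, n = 4). CD25 KO mice were at 0.185–0.267 in thymus and 0.289–0.347 in spleen, and WT mice were at 0.372–0.410 and 0.540–0.606. The log2 ratio changed by -0.86 in thymus and -0.87 in spleen. The summed antagonists were at 119 ± 4.51 and 109 ± 5.85 CPM per kb in thymic WT and CD25 KO samples and at 63.7 ± 3.65 and 57.3 ± 0.816 in spleen. Their make-up differed between the tissues, as *Mxd1* held 38.7% of the sum in thymic WT and 15.9% in splenic WT, and *Mnt* 10.2% and 22.0%. *Mxd4* held 42.4% and 55.4%.

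**Figure D4:**
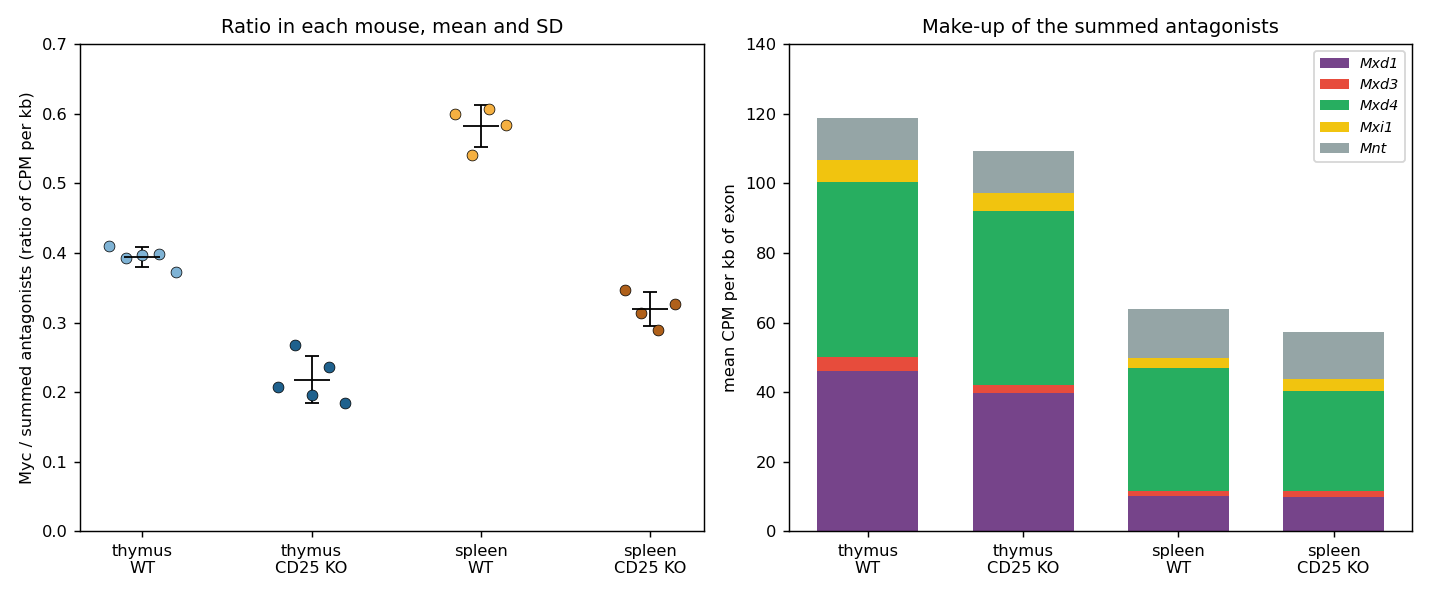
Left, ratio of *Myc* to the summed antagonists in CPM per kb of exon (y axis) by group (x axis), where points are mice and black lines the mean and SD. Right, mean CPM per kb of each antagonist, stacked, in each group. The ratio is lower in every CD25 KO mouse than in every WT mouse of its tissue, and *Mxd1* takes a smaller share in spleen than in thymus.

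Genes activated by MYC were followed through a list of 57 (after the Hallmark MYC targets V2 list), most of which make ribosomes, nucleotides or chaperones. In thymus 11 of 56 tested fell and none rose, 53 of 56 had negative log2 fold changes, and the median was -0.32. In spleen 13 of 57 fell and 3 rose, 46 had negative log2 fold changes, and the median was -0.16. Of all genes tested in thymus, 2.99% fell and 3.17% rose, with a median of -0.002. Of those tested in spleen, 3.55% fell and 5.9% rose, with a median of -0.006. The targets that fell most in thymus were *Hk2* (-1.05, SE 0.194, FDR = 0.0046), the hexokinase that starts glycolysis, *Pprc1* (-0.55), a coactivator of mitochondrial genes, and *Pus1* (-0.52), a pseudouridine synthase. In spleen they were *Slc29a2* (-0.86, SE 0.175, FDR = 0.00282), a nucleoside transporter, *Srm* (-0.69), the spermidine synthase, and *Ipo4* (-0.56), a nuclear import receptor. *Pprc1*, *Slc19a1* and *Nop56* fell in both tissues. None of the 57 differed between the tissues at FDR < 0.01 with edgeR, 3 did with DESeq2, and at an unadjusted p under 0.05 the spleen-minus-thymus difference was positive for 17 and negative for 1, where 32.8% of all genes tested had such a p. Over all genes, DESeq2 called 2188 for the difference, where edgeR called 1305.

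The 3 targets that rose in spleen, *Plk1* (0.58), *Plk4* (0.36) and *Mcm4* (0.25), act in mitosis, centriole copying and DNA replication. The cell division list, which itself includes *Plk1*, rose in the same samples. *Srm* was at 15.8–21 CPM in splenic WT against 10.1–12.8 CPM in splenic CD25 KO samples, without overlap. *Hk2* was at 11.5–15.4 CPM in thymic WT against 4.24–8.40 CPM in thymic CD25 KO samples, also without overlap, while in spleen it was at 9.97–11.1 and 7.61–10.6 CPM, overlapped, and did not pass. The thymic count was sensitive to single mice and to the method, with 5 lower targets after a GC correction, 26 with DESeq2, and 28 without CD25 KO mice 2 and 4. Without WT mouse 2, WT mouse 5 or CD25 KO mouse 1 it was 1, without CD25 KO mouse 3 it was 2, and without WT mouse 3, 1 or 4 it was 3, 5 or 7. In spleen the count was 7 without WT mouse 3. Over all genes, the calls without 1 mouse numbered 371–1087 in thymus and 1099–1723 in spleen, against 1047 and 1651 with every mouse. In thymus they numbered 786 after the GC correction, 2730 with DESeq2 and 2008 without CD25 KO mice 2 and 4. The thymic median kept its sign and ranged from -0.42 to -0.25 over the alternatives run on all or all but those 2 mice.

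**Figure D5:**
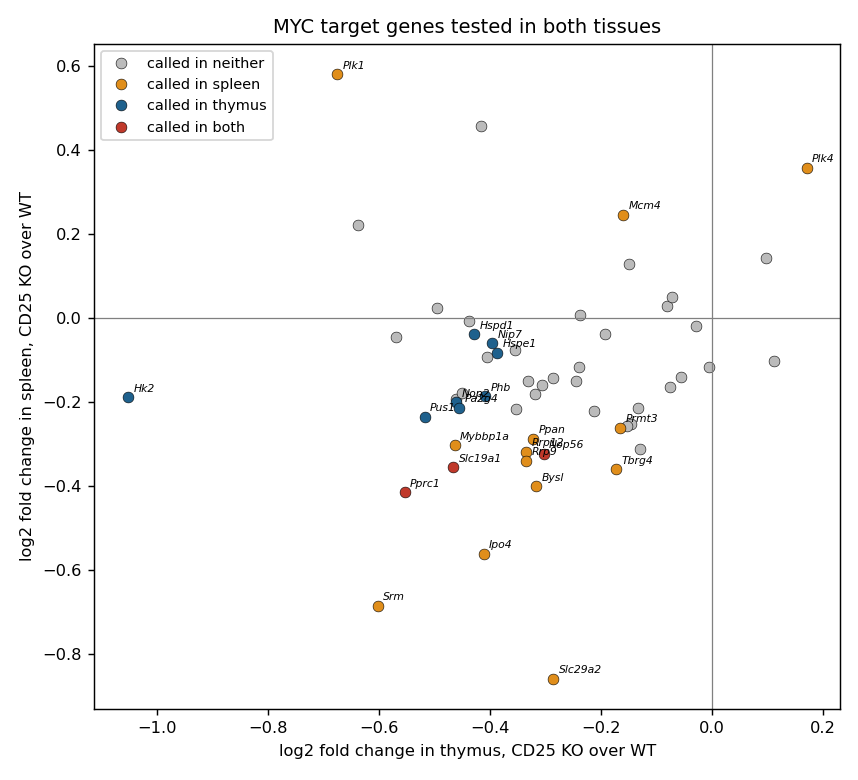
Log2 fold change of CD25 KO over WT in spleen (y axis) against thymus (x axis) for the MYC target genes tested in both tissues, coloured by the tissue in which each was DE, with the names of DE genes. Most points lie in the lower left, below 0 in both tissues, and *Plk1*, *Plk4* and *Mcm4* lie above 0 in spleen.

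Of 18 cofactors of MYC and MAX, 3 fell in thymus, *Ruvbl2* (-0.41), *Kat2a* (-0.39) and *Wdr5* (-0.32), and 1 in spleen, *Kat2a* (-0.42, SE 0.0566, FDR = 9.63e-05). In thymus the count was 5 with DESeq2, 4 without CD25 KO mouse 4, and 1 without WT mouse 2, 3 or 5 or CD25 KO mouse 1 or 3. *Kat2a* encodes the histone acetyltransferase GCN5, *Ruvbl2* an ATPase of chromatin remodelling complexes, and *Wdr5* an adaptor that also belongs to PRC1.6. *Kat2a* was at 52.4–58.1 CPM in thymic WT against 38.7–46.0 CPM in thymic CD25 KO samples, and at 50.7–56.2 and 38.5–42.7 CPM in spleen, without overlap in either tissue. Of 17 subunits of the SIN3 and NCOR corepressors, none was DE in thymus with edgeR (3 with DESeq2, and 7 at an unadjusted p under 0.05) and *Sap30* rose in spleen (0.74, SE 0.165, FDR = 0.00537), from 1.68 to 2.80 CPM on average, while no gene of the list was called there without WT mouse 1, 2 or 3 or CD25 KO mouse 2 or 4. Its effect also differed between the tissues, by 0.94 (FDR = 0.00232). Of 13 PRC1.6 subunits, *Wdr5* alone was DE with edgeR, in thymus, where DESeq2 called 3, and 0 were called without WT mouse 2, 3 or 5 or CD25 KO mouse 1, 2, 3 or 5. Beside the counts of these 3 lists, 6.16% of all genes tested in thymus and 9.45% in spleen were DE with edgeR in either direction. Over all genes, DESeq2 called 2730 in thymus and 2118 in spleen, where edgeR called 1047 and 1651. Without 1 mouse, edgeR called 371–1087 over all genes in thymus and 1099–1723 in spleen.

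Of 12 genes whose products act on the stability of MYC protein, *Usp36* (-0.43) and *Usp28* (-0.26) fell in thymus. *Usp28* (-0.40), *Usp36* (-0.33) and *Huwe1* (-0.20) fell in spleen. The thymic count was 0 without WT mouse 2 or 5 or CD25 KO mouse 1, and 1 without WT mouse 1, 3 or 4 or CD25 KO mouse 3 or 5, and the splenic count was 4 without CD25 KO mouse 3 and 2 without any other splenic mouse. USP28 and USP36 are deubiquitinases known to protect MYC from degradation, and HUWE1 is a ubiquitin ligase with MYC among its substrates. *Usp36* was at 68.7–78.8 CPM in thymic WT against 47.4–59.2 CPM in thymic CD25 KO samples, and at 75.1–79.8 and 57.8–66.0 CPM in spleen, again without overlap. The kinase gene *Pim1* was the list's gene whose effect differed between the tissues, by 1.11 (FDR = 0.00956), and was DE in neither. Of all genes tested, 6.16% were DE in thymus and 9.45% in spleen, in either direction. Without 1 mouse, 371–1087 of all genes were DE in thymus and 1099–1723 in spleen, against 1047 and 1651 with every mouse. MYC protein was not measured in these data.

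The other lists held few DE genes, where 6.16% of all genes tested were DE in thymus and 9.45% in spleen. Of the network's remaining genes, *Mlxip* was not DE (-0.10 in both tissues), *Mycl* was tested in thymus and was not DE, and *Mlxipl* had too few counts to be tested. The targets shared by MLXIP and MLXIPL, *Txnip* (-0.12 in thymus and -0.14 in spleen) and *Arrdc4* (0.19 and 0.25), which restrain glucose uptake, were not DE either. Of 6 genes that MYC is known to repress, in thymus *Cdkn1b*, a CDK inhibitor, rose (0.28, FDR = 0.00756) and *Ndrg1* fell (-0.52, FDR = 0.00364), and in spleen none was DE. Leaving out any 1 thymic mouse lost at least 1 of these 2 calls, and both were lost without WT mouse 2 or 3 or CD25 KO mouse 1 or 3. Of 14 germ cell genes kept silent by PRC1.6 with MGA, only 4 passed the filter in each tissue, and the cohesin gene *Smc1b* rose in thymus from 1.10 to 2.06 CPM on average while *Zcwpw1* fell in spleen (-0.56). When 1 mouse was left out, no gene of this list was called in thymus unless it was WT mouse 4 or CD25 KO mouse 5, nor in spleen unless it was CD25 KO mouse 1. Over all genes, 371–1087 were called in thymus without 1 mouse and 1099–1723 in spleen, against 1047 and 1651 with every mouse.

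As a frame for the cell state, the central and effector Treg lists chosen by the study on these samples, which are thus no independent evidence, were also counted. *Mki67*, which the study also named as an effector gene, was counted with the cell division genes instead. It rose in spleen (1.01, FDR = 9.17e-07) and was not DE in thymus (-0.28, FDR = 0.706). Of all genes tested, 3.55% fell and 5.9% rose in spleen, and 2.99% fell and 3.17% rose in thymus. Without 1 mouse, 371–1087 of all genes were DE in thymus, against 1047 with every mouse. The central Treg genes *Ly6c1* (-1.30), *Bcl2* (-1.01) and *Ccr7* (-0.61) fell in spleen, and none of these was DE in thymus with edgeR. Of 9 effector genes, all rose in spleen, led by *Gzmb* (3.41), *Il10* (2.02) and *Fgl2* (1.33), and 6 of 8 fell in thymus (3 without CD25 KO mouse 1, and 4–6 without any other mouse). The latter included *Tigit* (-2.58), *Fgl2* (-1.97) and *Klrg1*, which had 18–91 counts in the WT libraries of the thymus against 0–1 in the CD25 KO libraries. *Myc* thus fell in both tissues while the effector genes moved in opposite directions. *Foxp3* itself was at 59.8% of WT in thymus and 68.5% in spleen (FDR = 0.00101 and 6.9e-06).

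Finally, the 3 genes whose pattern was most like that of a member were named, by the smallest root mean square difference of log2 CPM centred on each gene's mean over the 18 samples, among 16214 genes tested in both tissues. For *Myc* they were *Lta* (0.202), *Cnksr3* (0.219) and *Car12* (0.220), against a median of 0.626 over all genes. *Lta* encodes lymphotoxin alpha, and its log2 fold changes were -0.66 in thymus and -1.15 in spleen. For *Mxd1* they were *Nr4a1* (0.146), *Myb* (0.156) and *Gm43352* (0.160), the first an early gene of antigen receptor signalling, in a pattern dominated by the gap between the tissues. For *Mxd3* they were *Chaf1a* (0.182), *Tacc3* (0.191) and *Tcf19* (0.197), genes of chromatin assembly, the mitotic spindle and the cell cycle, none of which was on the cell division list. For *Mxd4* they were *Xpo6* (0.0853), *Il17ra* (0.0879) and *Add1* (0.0879). The points share libraries and depth, so these are descriptions of 18 samples in 4 groups.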

How the data were processed

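The authors sequenced RNA of sorted Tregs as 75 bp paired-end reads from ribosome-depleted libraries, aligned them to GRCm38 with STAR, and counted them per gene of GENCODE M13 with featureCounts 1.5.0. The deposited table holds raw counts, without normalization. Whether strand was used in counting is not given in the sources used here, so reads of overlapping genes on opposite strands may not be separable. GENCODE M21, also on GRCm38, gave symbols for 50376 of the 50600 identifiers, and gave coordinates and exonic lengths.

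Here, within each tissue, the genotypes were compared by the quasi-likelihood test of edgeR 4.0.16 (R 4.3.3), after filterByExpr and TMM scaling, with Benjamini-Hochberg adjustment over all genes tested, at FDR < 0.01. The spread was estimated in each tissue separately. The difference between tissues was tested in 1 fit of all 18 samples. All adjusted p-values are from edgeR unless DESeq2 (1.42.0) is named. CPM values use TMM library sizes within a tissue. Standard errors came from the fold change and F statistic. A gene's CPM per kb used its union exon length. Replicates were separate mice, and no 2 libraries agreed within sampling noise. The tests were checked on simulated counts.

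The 10 members, the gene lists, the rules and the alternatives were chosen with earlier results of these data known. Named were all members, up to 3 DE genes of each list per tissue and direction, all genes of lists of at most 5 (except 1 central Treg gene, which is not reported here), and the 3 genes most alike to each of *Myc*, *Mxd1*, *Mxd3* and *Mxd4*. *Pim1*, *Prelid1*, *Psmc3ip*, *Slc19a1*, *Nop56*, *Mki67* and the genes listed at 0 were named after their values were seen. Alternatives were other scalings, filters, DESeq2, a GC correction, 1 fit of all samples, a replicate block, leaving out each mouse, and 2 chosen after seeing the data: FDR < 0.05, and leaving out thymic CD25 KO mice 2 and 4. Replicate numbers did not pair the thymic samples (correlations of same-numbered deviations -0.204 to 0.0853).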

Additional observations from a re-analysis of the deposited data

Results flagged for a closer look

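*Mxi1* stood out because its change in CD25 KO samples differed between the tissues, by 0.58 on the log2 scale in the test of the difference itself, with all CD25 KO mice below WT in thymus and above WT in spleen. In thymic CD25 KO mouse 5, *Mxd4* was at 379 CPM, apart from the next lowest mouse at 425 CPM, and *Mlx* at 37.1 CPM, apart from the next highest at 31.6 CPM. These are gaps of 0.752 and 0.730 of the group's range, above Dixon's 95% critical value for 5 samples. Of the 44 groups of values, those of splenic *Mycn*, all at 0, could not be checked in this way. Of the rest, chance alone would flag about 1 in 20.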

How the results depend on the processing

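*Myc* stayed lower and DE in both tissues under every alternative run, with log2 fold changes from -1.15 to -0.83 in thymus and from -1.07 to -0.98 in spleen, and so did *Mxd4* in spleen and the difference for *Mxi1* between tissues. The number of DE members in thymus (1) was 3 with DESeq2 (*Mxd1* and *Mxi1* added), 2 in the fit of all 18 samples (*Mxi1*), 2 without CD25 KO mice 2 and 4 (*Mxd3*) and 4 at FDR < 0.05 (*Mxd1*, *Mxi1*, *Mga*). For the difference between tissues (1) it was 2 with upper-quartile scaling, with the GC correction and at FDR < 0.05 (*Mxd4* in each), and 2 without CD25 KO mice 2 and 4 (*Mxd3*). Leaving out 1 mouse gave 1 DE member in thymus throughout, 2–3 in spleen and 1 for the difference.

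The number of MYC targets lower in thymus (11) was 26 with DESeq2, 5 with the GC correction, 30 in the fit of all samples, 31 at FDR < 0.05, 28 without CD25 KO mice 2 and 4, and 1–16 without 1 mouse. In spleen (13) it was 21 with upper-quartile scaling and at FDR < 0.05, 7 in the fit of all samples, and 7–14 without 1 mouse, the lowest without WT mouse 3. With the replicate block, which pairs mice that share only a number, 0 targets and 209 genes in all were DE in thymus against 1047, *Myc* stayed DE, and with the block and the GC correction 1 target and 201 genes were. No thymic mouse correlated best with its own number. Over all genes, DESeq2 called 2730 in thymus, 2118 in spleen and 2188 for the difference, where edgeR called 1047, 1651 and 1305. The fit of all samples called 2881 in thymus and 795 in spleen, where 1651 were called. At FDR < 0.05 the counts were 3951, 3001 and 3149. Without CD25 KO mice 2 and 4 they were 2008 in thymus and 2307 for the difference. Without 1 mouse they were 371–1087 in thymus, 1099–1723 in spleen and 817–1489 for the difference.

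Signs turned only for changes that passed no test. *Mxd4* in thymus was 0.021 with upper-quartile scaling and 0.104 with the GC correction, with or without the block. *Mnt* in thymus was -0.012 in the fit of all samples and -0.002 with the block, and in spleen 0.007 with the GC correction. The difference for *Max* was -0.002 with upper-quartile scaling, and that for *Myc* was 0.132 without CD25 KO mice 2 and 4. Without 1 mouse, *Mxd4* ranged from -0.037 to 0.022 and *Mnt* from -0.043 to 0.056 in thymus, *Max* from -0.061 to 0.007 and *Mxd1* from -0.113 to 0.018 in spleen, and the difference for *Myc* from -0.131 to 0.041. The causes were not tested. Depth limits *Mycn* (at most 11 counts) and *Mxd3* (47–336 counts).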
